A study of Homo sapiens with 15 samples.

Results

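The genes described here form the ATF4, serine and amino acid response: 35 genes named by symbol, namely transcription factors of the response and genes that ATF4 is known to switch on. Genes belong by symbol and not by a cut-off on measured values, but the list was made with earlier results of these data known. Of the 15510 genes of the deposited count table, all 35 were found, and all 35 were among the 13599 genes with enough reads to be tested. Poly(A) RNA was sequenced from 5 human lines, with 3 libraries per line. The RasV12 line is labelled as transformed through the RAS pathway and carries H-RasV12, an active H-RAS. MekDD is labelled weakly transformed through the MAPK pathway and carries MEK-DD, an active MEK kinase. AKTmyr is labelled transformed through the PI3K-AKT pathway and carries myr-HA-Akt, an AKT held at the membrane. Those lines and T53D4 share a plasmid with hTERT and p53DD, a dominant negative p53 fragment, and a plasmid with cyclin D1 and CDK4R24C, a mutant CDK4. T53D4 carries nothing further and is labelled not transformed. All 4 were made from ARPE19, an established retinal pigment epithelial line, which is labelled not transformed and received no plasmid. Each construct is represented by a single line, so replicates are separate thawed vials and not separate transfections. All cells grew in the same DMEM/F12 medium with serum, with no treatment that removes amino acids.

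When amino acids run short, or when proteins misfold in the endoplasmic reticulum, kinases phosphorylate the translation factor eIF2. General translation then slows while the mRNA of ATF4 is translated more, so ATF4 activity can change without a change in its own mRNA. ATF4 pairs with other basic leucine zipper proteins, C/EBP factors among them, and switches on genes that make and import amino acids, feed one-carbon metabolism, and limit the response again. The element it binds joins a C/EBP site to an ATF site, and its usual letters are TGATGCAAT. In many tumour cells the same programme supplies serine and glycine for growth.

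To show what such sites look like in these genes, RefSeq promoters (build GRCh38.p14) were read. Each window ran from 250 bases before to 50 bases after a listed start. Of the 35 genes, 28 had such a window, some of them several, with 42 windows in all. The exact letters TGATGCAAT stood in 0 of the 28 and in 80 of all 27303 genes with a window (0.293%). The looser letters TGATGNAAN, searched on both strands, stood in 8 of the 28 genes (28.6%) and in 1215 of all 27303 (4.45%). By window, they stood in 8 of the 42 (19%) and in 1268 of all 35114 (3.61%). The lines below show them in capitals with 10 bases on each side where the window holds them, 5′ to 3′ on the strand where the letters read so. That strand is the gene's own in 5 of these genes and the opposite one in CHAC1, SLC3A2 and GOT1.
JDP2: tagccggggcTGATGCAACccgtcccgcc
ASNS: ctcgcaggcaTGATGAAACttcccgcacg
CHAC1: ctggcaggagTGATGCAACggcaggggag
CEBPG: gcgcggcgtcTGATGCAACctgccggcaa
SLC3A2: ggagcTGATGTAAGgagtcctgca
ATF3: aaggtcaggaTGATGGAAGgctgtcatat
GOT1: ctgccgagaaTGATGCAACcaatgcaatt
SLC7A1: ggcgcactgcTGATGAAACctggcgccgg
Positions count along the gene with the start used for that window as 0, which need not be the annotated gene's first base. The motif began at -16 in JDP2, -68 in ASNS, -210 in CHAC1, -42 in CEBPG, -191 in ATF3 and -199 in GOT1. It began at 36 in SLC3A2 and 7 in SLC7A1, after that start. In JDP2, ASNS, CHAC1, CEBPG, SLC3A2 and SLC7A1 the motif lay past the first base of the annotated gene. For SLC3A2 it began at chr11:62881735, and the annotated gene at chr11:62856102. The core TTGCATCA, which lies inside the reverse complement of a full match and so overlaps it, stood in 4 of the 28 genes (14.3%) against 1.08% of all genes. The other letters searched were TGACGTCA, a cyclic AMP element, in 0 of the 28 against 2.25%, CACGTG, an E-box, in 3 (10.7%) against 8.78%, and TGANTCA, an AP-1 site, in 3 (10.7%) against 9.37%. These matches are descriptions of letters in a short window. No binding was measured, and the windows leave out sites elsewhere in or around the gene.

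A whole window of each of 4 genes is given because their RNA varied most clearly across the lines or because they anchor a pathway. JDP2 (chr14:75427772-75428071, plus strand) was called in more comparisons than any other gene that holds the element, and it is described among the regulators below. ASNS (chr7:97872359-97872658, minus strand) makes asparagine, and CHAC1 (chr15:40953221-40953520, plus strand) degrades glutathione. PHGDH (chr1:119711684-119711983, plus strand) opens serine synthesis and holds no match in this window. Each window is read 5′ to 3′ along its gene, and capitals mark the 9 bases of the motif, which in CHAC1 lie on the opposite strand.
JDP2: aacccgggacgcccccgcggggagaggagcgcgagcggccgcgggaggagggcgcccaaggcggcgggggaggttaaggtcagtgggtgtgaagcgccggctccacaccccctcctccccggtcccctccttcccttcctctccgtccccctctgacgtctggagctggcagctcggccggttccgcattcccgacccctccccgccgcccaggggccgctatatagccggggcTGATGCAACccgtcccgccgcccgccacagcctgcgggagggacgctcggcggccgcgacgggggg
ASNS: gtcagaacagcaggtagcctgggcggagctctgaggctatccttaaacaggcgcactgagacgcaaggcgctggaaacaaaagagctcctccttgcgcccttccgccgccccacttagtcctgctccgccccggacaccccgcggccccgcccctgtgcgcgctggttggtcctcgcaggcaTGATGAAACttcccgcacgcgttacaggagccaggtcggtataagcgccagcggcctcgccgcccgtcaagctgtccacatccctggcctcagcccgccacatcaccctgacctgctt
CHAC1: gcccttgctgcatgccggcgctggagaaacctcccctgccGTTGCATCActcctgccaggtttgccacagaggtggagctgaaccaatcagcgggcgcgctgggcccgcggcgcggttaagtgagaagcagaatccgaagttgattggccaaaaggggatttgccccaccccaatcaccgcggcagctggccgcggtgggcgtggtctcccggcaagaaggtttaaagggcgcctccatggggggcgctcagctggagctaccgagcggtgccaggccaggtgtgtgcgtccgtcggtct
PHGDH: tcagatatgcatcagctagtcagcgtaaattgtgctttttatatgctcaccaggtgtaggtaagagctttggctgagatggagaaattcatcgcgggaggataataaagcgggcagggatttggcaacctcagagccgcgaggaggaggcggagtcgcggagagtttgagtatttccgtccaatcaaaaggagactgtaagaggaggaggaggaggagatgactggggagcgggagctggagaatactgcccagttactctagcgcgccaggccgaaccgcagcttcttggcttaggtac

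The libraries held 20.63 to 46.55 M reads on genes. Levels are CPM, the raw counts that were deposited scaled to library sizes with TMM factors. A gene is called higher or lower where edgeR's quasi-likelihood test gives a Benjamini-Hochberg adjusted p under 0.05 over all 13599 genes. Every oncogene construct stood highest in the line labelled with it. The cyclin D1 and CDK4R24C constructs had 2349 ± 121 and 2380.1 ± 23.3 CPM in RasV12, 858 ± 132 and 1005 ± 90.1 CPM in AKTmyr, 269 ± 57.6 and 142 ± 13.7 CPM in MekDD and 146 ± 32.1 and 92.2 ± 11.8 CPM in T53D4 (SD, n = 3), against 193 ± 41.6 and 70.7 ± 12 CPM in ARPE19, which received no plasmid. MekDD and T53D4 below therefore mean the libraries so labelled. The hTERT construct had 1244 ± 66.4 CPM in RasV12, 633 ± 175 in AKTmyr, 454 ± 58.2 in MekDD and 879 ± 147 in T53D4. In ARPE19 it had 0.176 ± 0.0538 CPM. The p53DD construct had 111 ± 12.4, 58.4 ± 20.1, 32.3 ± 8.36 and 70.7 ± 20.1 CPM in the same order. In ARPE19 it had 0.00976 ± 0.0169 CPM (SD, n = 3 throughout). The lines differed in these shared constructs as well as in the oncogene. Of 10 retinal pigment epithelium markers, summed CPM ran from 849 to 1024 in RasV12, 1095 to 1372 in MekDD, 1330 to 2029 in AKTmyr, 1576 to 1936 in T53D4 and 2447 to 2516 in ARPE19, most of it from the keratins KRT8 and KRT18. RPE65, the defining visual cycle enzyme, had 0 reads in T53D4 and ARPE19 and at most 12 reads in any line. Markers of other cell types, 12 of 17 of them in the table, summed to 1.56 to 5.27 CPM in every library. The part of these marker differences in the results below was not tested, and in bulk RNA fewer cells of a type cannot be told apart from less RNA per cell.

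Before any comparison, some libraries stood apart in these genes. Against each gene's mean over the 15 libraries (log2 CPM), the median of the 35 genes was -0.93 in ARPE19 replicate 1, with 31 of 35 genes below their mean, against -0.49 and -0.48 in the other ARPE19 libraries. AKTmyr replicate 1 stood at -0.27, while the other AKTmyr libraries stood at 0.55 and 0.37. RasV12 replicate 3 stood at -0.24, against -0.01 and 0.31 in the other RasV12 libraries. The median of all genes lay within 0.02 of 0 in each of these libraries. Calls of the 35 genes that turn on one of them are given with and without it. Genes outside the 35 were not checked in this way.

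**Figure D1:**
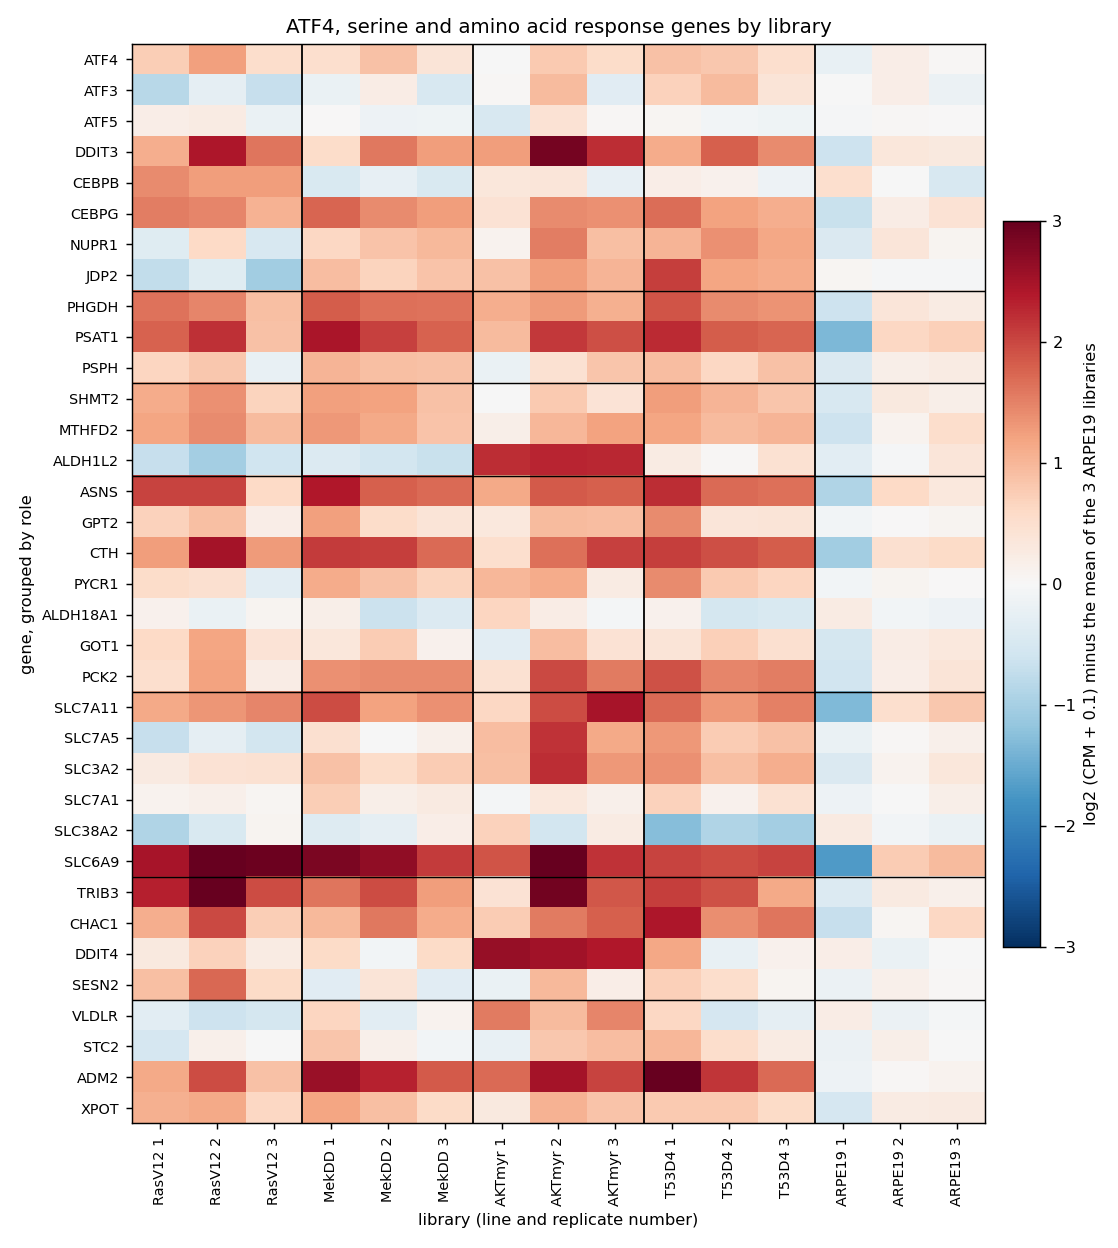
Heat map of the 35 genes (rows, grouped by role) in the 15 libraries (columns, RasV12, MekDD, AKTmyr, T53D4, then ARPE19). Colour is log2(CPM + 0.1) minus the mean of the 3 ARPE19 libraries, red above and blue below. Most rows are red in the 4 derived lines, ARPE19 replicate 1 is blue in most rows, and the columns of AKTmyr show DDIT4 and ALDH1L2 in deep red.

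Set against the parental line, the median difference of the response was positive in every derived line, and many of its genes passed the test. In RasV12 versus ARPE19, 16 of the 35 genes were called higher and 2 lower, where 14.4% of all tested genes were called higher and 16.2% lower. In MekDD versus ARPE19, 15 were higher and 0 lower, where 4.61% of all genes were called higher and 6.27% lower. In AKTmyr versus ARPE19, 19 were higher and 0 lower, where 7.98% and 8.86% of all genes were. The median log2 difference of the 35 genes was 0.73 in RasV12, 0.82 in MekDD and 1.06 in AKTmyr, against 0.01, 0.01 and 0.00 for all genes tested. Over 13 alternatives these medians ran from 0.46 to 0.88 for RasV12, 0.64 to 0.94 for MekDD and 0.80 to 1.15 for AKTmyr. In AKTmyr 35 of 35 genes had a positive difference, in MekDD 28 and in RasV12 26. These comparisons, and the next one, share the 3 ARPE19 libraries, so they are not separate evidence. The counts also turned on single libraries. The RasV12 count of 18 calls became 11 without RasV12 replicate 2. The MekDD count of 15 became 6 without MekDD replicate 1, 5 without MekDD replicate 2, 6 without ARPE19 replicate 1 and 8 without ARPE19 replicate 2. The AKTmyr count of 19 became 10 without AKTmyr replicate 2 and 12 without ARPE19 replicate 1. It was 11 with only the 2 lines in the fit, and the MekDD count was 7 without replicate 1 of any line.

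T53D4 versus ARPE19 sets the line labelled with the immortalising plasmids alone against its parent. As given above, the cyclin D1 and CDK4R24C reads of the T53D4 libraries lay near those of ARPE19, while their hTERT and p53DD reads lay far above. Here 3 of the 35 genes were called higher, namely ADM2, JDP2 and PHGDH, and 0 lower, where 0.0368% of all genes were called higher and 0.118% lower. The median log2 difference was 0.98, against 0.00 for all genes, with 0.68 to 1.08 over 13 alternatives, and 32 of 35 genes were positive. In 26 genes every T53D4 library lay above every ARPE19 library, which 8.04% of all genes did, and in 1 gene every T53D4 library lay below, which 8.57% of all genes did. Libraries with the same replicate number deviate together in this comparison. With the replicate number as a block, 12 of the 35 genes were higher and 0 lower, where 101 and 131 of all 13599 genes were. The DESeq2 Wald test called 15 of the 35 higher, and edgeR called 0 with only these 2 lines in the fit. The share of all genes called by DESeq2 was not computed. The count of 3 became 0 without T53D4 replicates 1 or 2 or without any 1 of the ARPE19 libraries, and 2 without T53D4 replicate 3.

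Against T53D4, few of these genes were called in the oncogene lines. In RasV12 versus T53D4, 1 of 35 was called higher and 6 lower, where 10.8% of all genes were called higher and 13.6% lower. With the replicate block 2 of the 35 were higher and 10 lower, where 2259 and 2607 of all 13599 genes were. In MekDD versus T53D4, 0 were called in either direction by edgeR, where 2.27% of all genes were called higher and 2.83% lower. DESeq2 also called 0 there. An unadjusted edgeR p under 0.05 was found for 5 of the 35, and for 2378 of all 13599 genes. With the block ATF3 was called lower in MekDD (-0.81 on the log2 scale, edgeR adjusted p = 0.00575 with the block). The block called 746 of all 13599 genes higher and 843 lower there. In AKTmyr versus T53D4, 4 were higher and 0 lower, where 9.91% of all genes were higher and 10.2% lower. With the block 6 of the 35 were higher and 1 lower, where 2304 and 2434 of all 13599 genes were. The median log2 difference of the 35 genes was -0.19 in RasV12, -0.09 in MekDD and -0.10 in AKTmyr. Each of these medians changed sign under at least 1 of 13 alternatives. These comparisons share the T53D4 libraries.

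Between the oncogene lines, RasV12 versus AKTmyr held the most calls. RasV12 had 2 of the 35 genes higher and 8 lower than AKTmyr, where 19.6% of all genes were called higher and 20.7% lower. MekDD had 0 higher and 5 lower than AKTmyr, where 12.7% and 13.5% of all genes were. With the block it had 1 higher and 8 lower, where 2756 and 2725 of all 13599 genes were. There the DESeq2 Wald test called 1 higher and 7 lower. RasV12 had 2 higher and 1 lower than MekDD, where 7.17% and 8.33% of all genes were. With the block it had 3 higher and 4 lower, where 1700 and 1888 of all 13599 genes were. In each of the 6 comparisons without ARPE19, the share of the response genes called, both directions together, lay below that of all genes. Over the 10 comparisons, 29 of the 35 genes were called at least once. The share of all genes called at least once was not computed, so this count cannot be set against it. The 6 never called were ATF5, GPT2, ALDH18A1, GOT1, SLC7A1 and STC2.

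**Figure D2:**
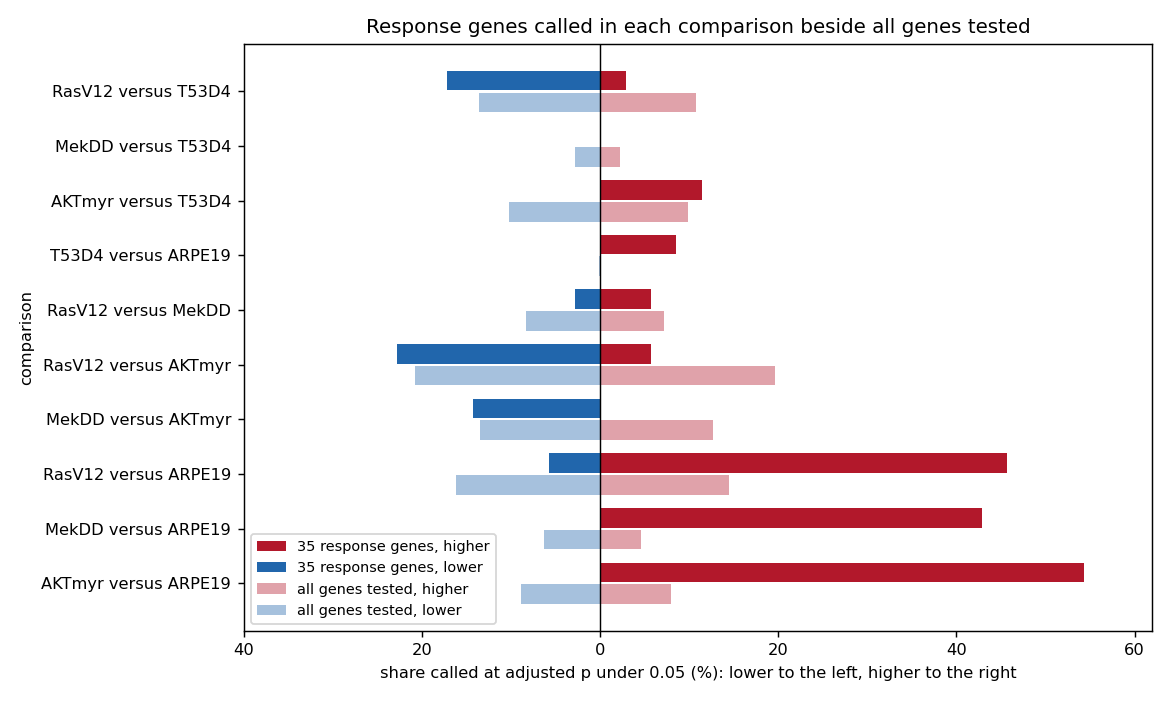
Horizontal bars give the percent of the 35 response genes (full colour) and of all 13599 genes tested (pale) called higher (right of 0) or lower (left of 0) at an edgeR adjusted p under 0.05, for each of the 10 comparisons. The bars of the response genes reach furthest right in the comparisons with ARPE19, where 16, 15 and 19 genes were higher in RasV12, MekDD and AKTmyr, and are absent in MekDD versus T53D4.

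Of the transcription factors, ATF4 itself had the highest level per kilobase of exon in every line. ATF4 (ENSG00000128272, hg38 chr22:39519695-39522685, plus strand) had 582, 814 and 505 CPM in RasV12, 498, 644 and 460.4 CPM in MekDD, 349, 602 and 513 CPM in AKTmyr, 638, 614 and 497 CPM in T53D4 and 299, 401 and 356 CPM in ARPE19 (replicates 1, 2 and 3 here and below). Every RasV12, MekDD and T53D4 library lay above every ARPE19 library, while AKTmyr replicate 1 lay inside the ARPE19 range. ATF4 was higher in RasV12 than in ARPE19 at log2 0.85 (SE 0.22, edgeR adjusted p = 0.0109), and the call was lost without RasV12 replicate 2 or ARPE19 replicate 1 (log2 0.63 to 0.75, edgeR adjusted p = 0.0501 to 0.0611). In the other 9 comparisons it was not called (log2 -0.26 to 0.73, edgeR adjusted p = 0.103 to 0.859). With the replicate block it was called higher in T53D4, MekDD and AKTmyr than in ARPE19 (edgeR adjusted p = 0.0436, 0.0199 and 0.0477 with the block). The GENCODE annotation names 4 pseudogenes of ATF4 that could share its reads.

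DDIT3, also called CHOP, is a factor of prolonged stress linked to cell death. It had 17.7, 45.1 and 25.4 CPM in RasV12, 12.1, 25 and 19.7 CPM in MekDD, 19.9, 60.9 and 38.8 CPM in AKTmyr, 17.9, 28.8 and 22.1 CPM in T53D4 and 5.3, 10.4 and 10.2 CPM in ARPE19. All ARPE19 libraries lay below all libraries of the other lines, and replicate 2 was the highest of each derived line. DDIT3 was higher than in ARPE19 in RasV12 (log2 1.77 (SE 0.44, edgeR adjusted p = 0.00737)) and in AKTmyr (log2 2.21 (SE 0.44, edgeR adjusted p = 0.00419)). The other 8 comparisons did not pass (log2 -1.07 to 1.41, edgeR adjusted p = 0.0771 to 0.834). With the block it was also called higher in T53D4 and in MekDD than in ARPE19 (edgeR adjusted p = 0.00447 and 0.000857), in AKTmyr than in T53D4 (edgeR adjusted p = 0.00703) and in RasV12 than in MekDD (edgeR adjusted p = 0.0184), and lower in MekDD than in AKTmyr (edgeR adjusted p = 0.000619). The annotation puts 27.2% of the DDIT3 exons over MARS on the other strand and 8.03% over AC022506.1 on its own strand. Whether counting used strand is not stated, so reads of these genes may mix.

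CEBPB, a C/EBP factor that also answers growth and inflammatory signals, marked the RasV12 line. It had 275, 244 and 246 CPM in RasV12, 74.6, 86.6 and 75 CPM in MekDD, 130.0, 131 and 85.7 CPM in AKTmyr, 118, 112 and 92.6 CPM in T53D4 and 145, 101 and 72.9 CPM in ARPE19. The 3 RasV12 libraries lay above all 12 others. CEBPB was higher in RasV12 than in MekDD (log2 1.69 (SE 0.22, edgeR adjusted p = 0.000189)), AKTmyr (log2 1.14 (SE 0.22, edgeR adjusted p = 0.0011)), T53D4 (log2 1.24 (SE 0.22, edgeR adjusted p = 0.000965)) and ARPE19 (log2 1.26 (SE 0.22, edgeR adjusted p = 0.000795)). MekDD versus AKTmyr gave log2 -0.55 (SE 0.22, edgeR adjusted p = 0.0749), and with the block CEBPB was called lower in MekDD (edgeR adjusted p = 0.0207).

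JDP2, an AP-1 family protein that represses transcription, ran the other way. It had 7.01, 9.15 and 5.72 CPM in RasV12, 22.5, 18.9 and 21.3 CPM in MekDD, 21.7, 28.2 and 24 CPM in AKTmyr, 49.7, 26.8 and 25.6 CPM in T53D4 and 12.3, 11.6 and 11.6 CPM in ARPE19. The RasV12 libraries were the lowest of all 15, the ARPE19 libraries came next, and those of MekDD, AKTmyr and T53D4 lay above both. JDP2 was lower in RasV12 than in MekDD (log2 -1.51 (SE 0.24, edgeR adjusted p = 0.000736)), AKTmyr (log2 -1.75 (SE 0.24, edgeR adjusted p = 8.96e-05)) and T53D4 (log2 -2.21 (SE 0.24, edgeR adjusted p = 1.98e-05)). It was lower in RasV12 than in ARPE19 as well (log2 -0.69 (SE 0.24, edgeR adjusted p = 0.0402)), a call lost without RasV12 replicate 1, RasV12 replicate 3, ARPE19 replicate 1, ARPE19 replicate 2 or ARPE19 replicate 3 (log2 -0.70 to -0.54, edgeR adjusted p = 0.0629 to 0.134). It was higher in MekDD than in ARPE19 (log2 0.82 (SE 0.23, edgeR adjusted p = 0.0367)), in AKTmyr than in ARPE19 (log2 1.06 (SE 0.23, edgeR adjusted p = 0.0076)) and in T53D4 than in ARPE19 (log2 1.53 (SE 0.23, edgeR adjusted p = 0.0302)). The MekDD call was lost without any 1 of the 6 libraries (log2 0.77 to 0.89, edgeR adjusted p = 0.0717 to 0.111), and the T53D4 call without T53D4 replicate 1, T53D4 replicate 2, ARPE19 replicate 1, ARPE19 replicate 2 or ARPE19 replicate 3 (log2 1.14 to 1.67, edgeR adjusted p = 0.0811 to 0.124).

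CEBPG, the dimer partner of ATF4 whose promoter is shown above, had 82.5, 78.6 and 59 CPM in RasV12, 95.8, 76.2 and 67.4 CPM in MekDD, 38.3, 75.9 and 73.8 CPM in AKTmyr, 91.6, 65.9 and 60.6 CPM in T53D4 and 18, 33.1 and 38.6 CPM in ARPE19. The ARPE19 libraries were the lowest, although AKTmyr replicate 1 (38.3 CPM) lay below ARPE19 replicate 3 (38.6 CPM). CEBPG was higher than in ARPE19 in RasV12 (log2 1.3 (SE 0.30, edgeR adjusted p = 0.00484)), MekDD (log2 1.42 (SE 0.30, edgeR adjusted p = 0.00862)) and AKTmyr (log2 1.07 (SE 0.30, edgeR adjusted p = 0.0242)), and the AKTmyr call was lost without AKTmyr replicate 2, AKTmyr replicate 3, ARPE19 replicate 1 or ARPE19 replicate 2 (log2 0.80 to 1.15, edgeR adjusted p = 0.0579 to 0.0861).

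ATF3, an early stress factor, had 9.45, 14 and 10.5 CPM in RasV12, 14.8, 19.9 and 12.1 CPM in MekDD, 17.3, 33 and 13.5 CPM in AKTmyr, 27.4, 32.7 and 22.2 CPM in T53D4 and 16.9, 19.4 and 15 CPM in ARPE19. The T53D4 libraries lay above all RasV12, MekDD and ARPE19 libraries, and AKTmyr spread across the range. ATF3 was lower in RasV12 than in T53D4 (log2 -1.27 (SE 0.30, edgeR adjusted p = 0.00605)) and than in AKTmyr (log2 -0.91 (SE 0.29, edgeR adjusted p = 0.0238)), though the libraries of that second pair overlapped and its call was lost without RasV12 replicate 1, RasV12 replicate 3 or AKTmyr replicate 2 (log2 -0.86 to -0.44, edgeR adjusted p = 0.0673 to 0.174). NUPR1, a small chromatin protein of the stress response, had 68.2, 134 and 63.2 CPM in RasV12, 135, 159 and 173 CPM in MekDD, 95.1, 255 and 166 CPM in AKTmyr, 179, 229 and 198 CPM in T53D4 and 65.2, 113 and 93 CPM in ARPE19. The T53D4 libraries lay above all RasV12, MekDD and ARPE19 libraries, with RasV12 and ARPE19 at the bottom. NUPR1 was lower in RasV12 than in T53D4 (log2 -1.19 (SE 0.34, edgeR adjusted p = 0.0195)), a call lost without RasV12 replicate 1, RasV12 replicate 3 or T53D4 replicate 2 (log2 -1.09 to -1.0, edgeR adjusted p = 0.0643 to 0.0847). It was lower in RasV12 than in AKTmyr as well, with overlapping libraries (log2 -0.96 (SE 0.34, edgeR adjusted p = 0.0354)), a call lost without RasV12 replicate 1, RasV12 replicate 3, AKTmyr replicate 2 or AKTmyr replicate 3 (log2 -0.98 to -0.56, edgeR adjusted p = 0.0536 to 0.204). With the block NUPR1 was also called higher in T53D4, MekDD and AKTmyr than in ARPE19 and lower in RasV12 than in MekDD (edgeR adjusted p = 0.0228, 0.0152, 0.00862 and 0.00865 with the block). ATF5, a related factor with 15.7 to 29.5 CPM over the 15 libraries, was called nowhere. The annotation puts 19.5% of its exons over NUP62 on the other strand.

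**Figure D3:**
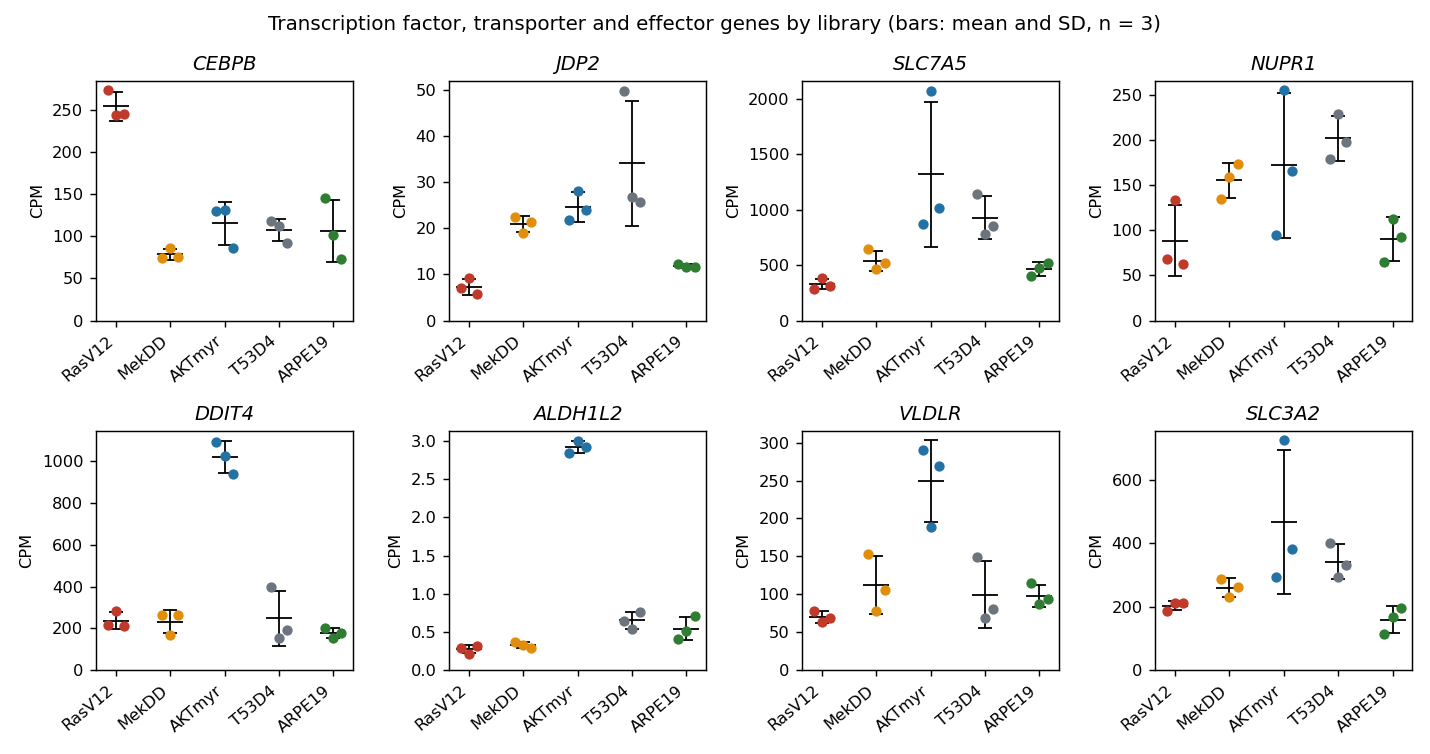
CPM by library for CEBPB, JDP2, SLC7A5, NUPR1, DDIT4, ALDH1L2, VLDLR and SLC3A2, 1 panel each with its own axis from 0. Points are libraries, bars the mean and SD of 3, lines in the order RasV12, MekDD, AKTmyr, T53D4, ARPE19. The RasV12 points stand apart upward for CEBPB and downward for JDP2, the AKTmyr points stand apart upward for DDIT4 and ALDH1L2, and AKTmyr replicate 2 is the top point for SLC7A5 and SLC3A2.

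In the serine synthesis branch, PHGDH and PSAT1 were higher than in ARPE19 in RasV12, MekDD and AKTmyr, and PSPH was called in MekDD versus ARPE19. PHGDH (ENSG00000092621, hg38 chr1:119648411-119744226, plus strand) takes the first step from the glycolytic intermediate 3-phosphoglycerate. It had 399, 351 and 240.0 CPM in RasV12, 453, 402 and 394 CPM in MekDD, 271, 310.3 and 266 CPM in AKTmyr, 474, 345 and 328 CPM in T53D4 and 83.8, 164 and 153 CPM in ARPE19. All 3 ARPE19 libraries lay below the other 12. PHGDH was higher than in ARPE19 in RasV12 (log2 1.31 (SE 0.24, edgeR adjusted p = 0.00122)), MekDD (log2 1.64 (SE 0.24, edgeR adjusted p = 0.000903)), AKTmyr (log2 1.08 (SE 0.24, edgeR adjusted p = 0.00827)) and T53D4 (log2 1.52 (SE 0.24, edgeR adjusted p = 0.0355)). The T53D4 call was lost without any 1 of the 6 libraries (log2 1.26 to 1.69, edgeR adjusted p = 0.0698 to 0.155). In the 6 comparisons without ARPE19 it was not called (log2 -0.44 to 0.56, edgeR adjusted p = 0.10 to 0.874).

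PSAT1, the aminotransferase of the second step, had 261, 347 and 141 CPM in RasV12, 416, 316 and 258 CPM in MekDD, 147, 334 and 294 CPM in AKTmyr, 361, 271 and 255 CPM in T53D4 and 30.1, 117 and 126 CPM in ARPE19. ARPE19 replicate 1 stood far below the other ARPE19 libraries, yet all 3 lay under every other library. PSAT1 was higher than in ARPE19 in RasV12 (log2 1.46 (SE 0.46, edgeR adjusted p = 0.0283)), MekDD (log2 1.86 (SE 0.47, edgeR adjusted p = 0.0225)) and AKTmyr (log2 1.51 (SE 0.46, edgeR adjusted p = 0.0399)). The RasV12 call was lost without RasV12 replicate 1, RasV12 replicate 2 or ARPE19 replicate 1 (log2 1.05 to 1.44, edgeR adjusted p = 0.0639 to 0.114), the MekDD call without MekDD replicate 1 or MekDD replicate 2 (log2 1.66 to 1.88, edgeR adjusted p = 0.0573 to 0.0793) and the AKTmyr call without AKTmyr replicate 2, AKTmyr replicate 3, ARPE19 replicate 1 or ARPE19 replicate 2 (log2 1.09 to 1.73, edgeR adjusted p = 0.0661 to 0.119). PSPH, the phosphatase that releases serine, ran from 14.9 to 40.9 CPM. It was called higher in MekDD than in ARPE19 (log2 0.92 (SE 0.28, edgeR adjusted p = 0.0477)), with 40.9, 37.8 and 37.3 CPM in MekDD and 14.9, 22.7 and 23.9 CPM in ARPE19, and that call was lost without any 1 of the 6 libraries (log2 0.73 to 1.04, edgeR adjusted p = 0.0515 to 0.189). The GENCODE annotation names 4 pseudogenes of PSAT1 and 1 of PSPH.

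Of the mitochondrial one-carbon enzymes, SHMT2 and MTHFD2 were called higher in RasV12 and MekDD than in ARPE19, and ALDH1L2 in AKTmyr. SHMT2, which splits serine to glycine, had 409.7, 496 and 302 CPM in RasV12, 446, 436 and 349.7 CPM in MekDD, 188, 327 and 253 CPM in AKTmyr, 450.2, 384 and 338 CPM in T53D4 and 137, 232 and 216 CPM in ARPE19. RasV12, MekDD and T53D4 lay above all ARPE19 libraries, and AKTmyr overlapped them. SHMT2 was higher than in ARPE19 in RasV12 (log2 1.04 (SE 0.24, edgeR adjusted p = 0.00532)) and MekDD (log2 1.07 (SE 0.24, edgeR adjusted p = 0.0132)), the second call being lost without MekDD replicate 2 or ARPE19 replicate 1 (log2 0.87 to 1.02, edgeR adjusted p = 0.0519 to 0.058). It was higher in RasV12 than in AKTmyr with overlapping libraries (log2 0.65 (SE 0.24, edgeR adjusted p = 0.0444)), a call lost without RasV12 replicate 1, RasV12 replicate 2, AKTmyr replicate 1 or AKTmyr replicate 3 (log2 0.46 to 0.65, edgeR adjusted p = 0.0854 to 0.18). With the block SHMT2 was higher in MekDD than in AKTmyr, lower in AKTmyr than in T53D4 and higher in T53D4 than in ARPE19 (edgeR adjusted p = 0.0199, 0.0352 and 0.0398 with the block).

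MTHFD2, a dehydrogenase and cyclohydrolase of the folate pathway, had 180.0, 211 and 152 CPM in RasV12, 195, 174 and 144 CPM in MekDD, 89, 157 and 184 CPM in AKTmyr, 179, 153 and 161 CPM in T53D4 and 50.9, 85.2 and 114 CPM in ARPE19. The ARPE19 libraries again held the lowest values, with AKTmyr replicate 1 among them. It was higher than in ARPE19 in RasV12 (log2 1.12 (SE 0.28, edgeR adjusted p = 0.00797)) and MekDD (log2 1.04 (SE 0.28, edgeR adjusted p = 0.0304)), the MekDD call being lost without MekDD replicate 1, MekDD replicate 2, ARPE19 replicate 1 or ARPE19 replicate 2 (log2 0.78 to 1.06, edgeR adjusted p = 0.0855 to 0.111). AKTmyr versus ARPE19 gave log2 0.79 (SE 0.28, edgeR adjusted p = 0.0695), and edgeR adjusted p = 0.046 with the block. The annotation puts 27.5% of its exons over SLC4A5 on the other strand, and GENCODE names 7 pseudogenes of it.

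ALDH1L2, the mitochondrial formyltetrahydrofolate dehydrogenase that yields NADPH, was a low gene that split the lines. It had 0.292, 0.213 and 0.315 CPM in RasV12, 0.374, 0.331 and 0.296 CPM in MekDD, 2.84, 2.99 and 2.92 CPM in AKTmyr, 0.65, 0.542 and 0.762 CPM in T53D4 and 0.41, 0.512 and 0.708 CPM in ARPE19. The AKTmyr libraries stood several-fold above all others, and the RasV12 and MekDD libraries were the lowest. ALDH1L2 was higher in AKTmyr than in T53D4 (log2 2.17 (SE 0.27, edgeR adjusted p = 0.000179)) and ARPE19 (log2 2.43 (SE 0.27, edgeR adjusted p = 7.63e-05)). It was lower in RasV12 and MekDD than in AKTmyr (log2 -3.43 (SE 0.29, edgeR adjusted p = 2.05e-06) for RasV12 and log2 -3.11 (SE 0.28, edgeR adjusted p = 8.28e-06) for MekDD). RasV12 was lower than T53D4 (log2 -1.25 (SE 0.30, edgeR adjusted p = 0.00779)) and than ARPE19 (log2 -0.99 (SE 0.30, edgeR adjusted p = 0.0237)), the last call being lost without RasV12 replicate 2, ARPE19 replicate 2 or ARPE19 replicate 3 (log2 -1.03 to -0.78, edgeR adjusted p = 0.0517 to 0.138).

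Among the other enzymes of amino acid metabolism, ASNS, CTH, PCK2 and PYCR1 were called and GPT2, ALDH18A1 and GOT1 were not. ASNS (ENSG00000070669, hg38 chr7:97851677-97872542, minus strand) makes asparagine and is a standard readout of ATF4. It had 203, 203 and 75.2 CPM in RasV12, 263, 173 and 163 CPM in MekDD, 111, 180.2 and 173 CPM in AKTmyr, 230.2, 162 and 156 CPM in T53D4 and 26.4, 75.4 and 62.3 CPM in ARPE19. RasV12 replicate 3 (75.2 CPM) fell inside the ARPE19 range, and all other derived libraries lay above it. ASNS was higher than in ARPE19 in RasV12 (log2 1.55 (SE 0.40, edgeR adjusted p = 0.0103)), MekDD (log2 1.87 (SE 0.41, edgeR adjusted p = 0.011)) and AKTmyr (log2 1.5 (SE 0.40, edgeR adjusted p = 0.0214)), the AKTmyr call being lost without AKTmyr replicate 2, AKTmyr replicate 3 or ARPE19 replicate 1 (log2 1.16 to 1.41, edgeR adjusted p = 0.0507 to 0.0633). The remaining 7 comparisons did not pass (log2 -0.32 to 1.74, edgeR adjusted p = 0.124 to 0.93).

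CTH, which releases cysteine from cystathionine, had 17.9, 42.3 and 18 CPM in RasV12, 32.1, 31.4 and 24.3 CPM in MekDD, 10.6, 23.5 and 31 CPM in AKTmyr, 31.2, 28.4 and 26.1 CPM in T53D4 and 3.54, 10.3 and 11 CPM in ARPE19. ARPE19 replicate 1 was the lowest library of all, and AKTmyr replicate 1 lay inside the ARPE19 range. CTH was higher than in ARPE19 in RasV12 (log2 1.66 (SE 0.45, edgeR adjusted p = 0.0122)), MekDD (log2 1.83 (SE 0.45, edgeR adjusted p = 0.0202)) and AKTmyr (log2 1.39 (SE 0.45, edgeR adjusted p = 0.0469)). The RasV12 call was lost without RasV12 replicate 2 (log2 1.12, edgeR adjusted p = 0.0771), the MekDD call without MekDD replicate 1, MekDD replicate 2 or ARPE19 replicate 1 (log2 1.46 to 1.77, edgeR adjusted p = 0.059 to 0.0697) and the AKTmyr call without AKTmyr replicate 2, AKTmyr replicate 3, ARPE19 replicate 1, ARPE19 replicate 2 or ARPE19 replicate 3 (log2 1.02 to 1.64, edgeR adjusted p = 0.0535 to 0.15).

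PCK2, the mitochondrial phosphoenolpyruvate carboxykinase, had 55.1, 89.6 and 45.7 CPM in RasV12, 101, 104 and 104 CPM in MekDD, 53.1, 155 and 115 CPM in AKTmyr, 146, 108 and 113 CPM in T53D4 and 25.9, 44.7 and 50.4 CPM in ARPE19. The MekDD libraries were nearly equal, and the RasV12 libraries reached down to the ARPE19 range. PCK2 was higher than in ARPE19 in MekDD (log2 1.36 (SE 0.35, edgeR adjusted p = 0.0238)) and AKTmyr (log2 1.41 (SE 0.35, edgeR adjusted p = 0.0133)), calls lost without MekDD replicate 1, MekDD replicate 2, ARPE19 replicate 1 or ARPE19 replicate 2 (log2 1.12 to 1.44, edgeR adjusted p = 0.0588 to 0.10) for MekDD and without AKTmyr replicate 2 (log2 1.05, edgeR adjusted p = 0.0616) for AKTmyr. PYCR1, the last enzyme of proline synthesis, had 98.4, 93.6 and 53.7 CPM in RasV12, 144, 124 and 105 CPM in MekDD, 133, 145 and 78.8 CPM in AKTmyr, 177, 115 and 105 CPM in T53D4 and 63.1, 70.5 and 66.8 CPM in ARPE19. Every MekDD, AKTmyr and T53D4 library lay above every ARPE19 library, and RasV12 replicate 3 was the lowest of the 15. In the annotation 14.1% of its exons overlap MYADML2 on the same strand. PYCR1 was higher than in ARPE19 in MekDD (log2 0.90 (SE 0.27, edgeR adjusted p = 0.0452)) and AKTmyr (log2 0.83 (SE 0.27, edgeR adjusted p = 0.0454)), calls lost without any 1 of the 6 libraries (log2 0.78 to 1.0, edgeR adjusted p = 0.0528 to 0.146) for MekDD and without AKTmyr replicate 1, AKTmyr replicate 2, ARPE19 replicate 1, ARPE19 replicate 2 or ARPE19 replicate 3 (log2 0.67 to 0.87, edgeR adjusted p = 0.0989 to 0.149) for AKTmyr. With the block PCK2 and PYCR1 were also lower in RasV12 than in T53D4 (edgeR adjusted p = 0.0242 and 0.00976) and higher in T53D4 than in ARPE19 (edgeR adjusted p = 0.030 and 0.0319), CTH was higher in T53D4 than in ARPE19 (edgeR adjusted p = 0.0407), and PYCR1 was lower in RasV12 than in MekDD (edgeR adjusted p = 0.0231).

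The 3 genes without a call were well detected. GPT2, a mitochondrial alanine aminotransferase, ran from 48.6 to 137 CPM, GOT1, the cytosolic aspartate aminotransferase, from 34.8 to 114 CPM, and ALDH18A1, which starts proline synthesis, from 59.8 to 146 CPM over the 15 libraries. With the block ALDH18A1 was called higher in AKTmyr than in T53D4 and lower in MekDD than in AKTmyr (edgeR adjusted p = 0.00614 and 0.00478).

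**Figure D4:**
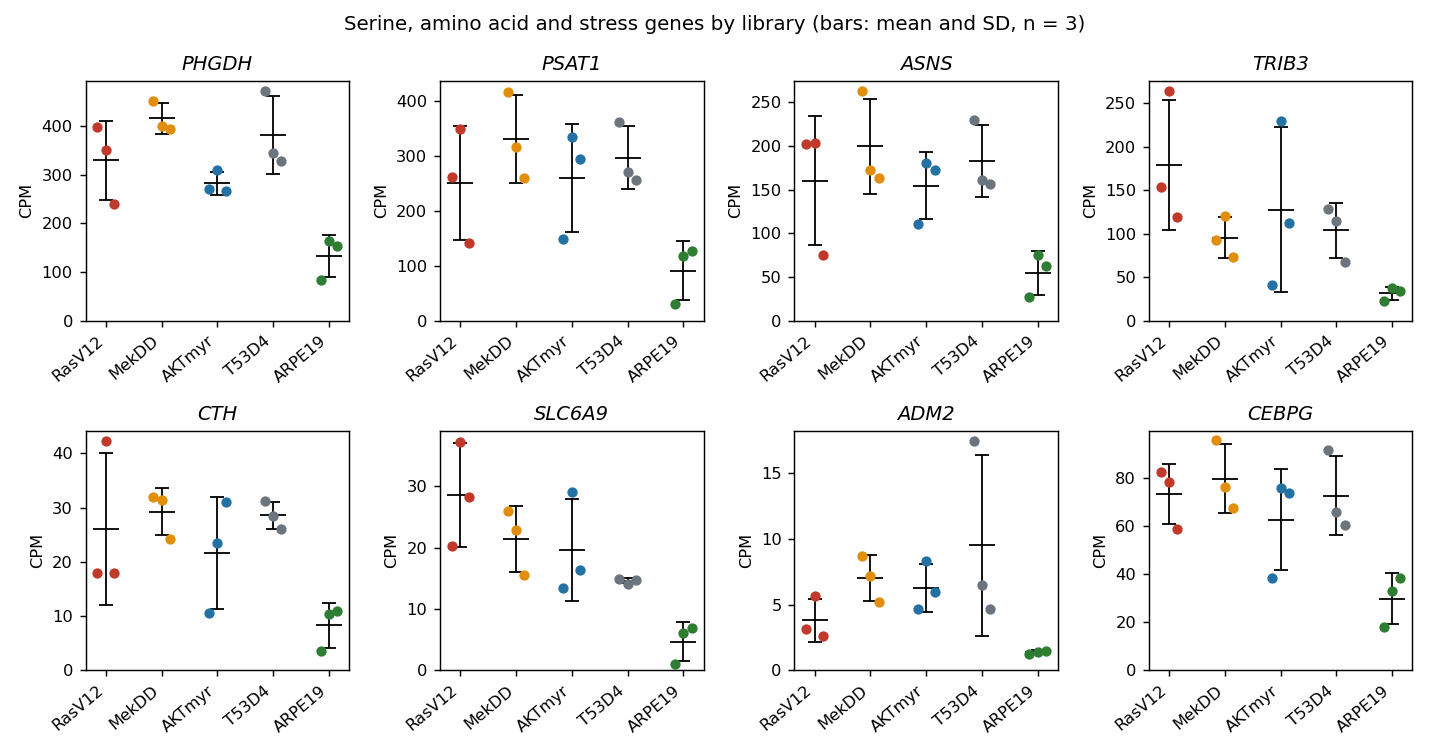
CPM by library for PHGDH, PSAT1, ASNS, TRIB3, CTH, SLC6A9, ADM2 and CEBPG, 1 panel each with its own axis from 0. Points are libraries, bars the mean and SD of 3, lines in the order RasV12, MekDD, AKTmyr, T53D4, ARPE19. The ARPE19 points lie lowest in each panel, apart from overlaps with RasV12 replicate 3 for ASNS and with AKTmyr replicate 1 for CTH and CEBPG.

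Of the 6 transporters, 4 were called higher in AKTmyr than in ARPE19, where 7.98% of all genes were. SLC7A5 and SLC3A2 also separated the oncogene lines. SLC7A5, the light chain of the transporter that imports leucine and other large neutral amino acids, had 289, 383 and 315 CPM in RasV12, 641, 461 and 516 CPM in MekDD, 873, 2073 and 1015 CPM in AKTmyr, 1147, 783 and 855 CPM in T53D4 and 402, 476 and 519 CPM in ARPE19. AKTmyr replicate 2 was the highest library, all AKTmyr and T53D4 libraries lay above all others, and the RasV12 libraries lay below all others. SLC7A5 was lower in RasV12 than in T53D4 (log2 -1.5 (SE 0.28, edgeR adjusted p = 0.00148)) and than in AKTmyr (log2 -2.0 (SE 0.28, edgeR adjusted p = 0.000123)). It was lower in MekDD than in AKTmyr (log2 -1.29 (SE 0.28, edgeR adjusted p = 0.00453)) and higher in AKTmyr than in ARPE19 (log2 1.5 (SE 0.28, edgeR adjusted p = 0.0027)). The GENCODE annotation names 2 pseudogenes of SLC7A5.

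SLC3A2, the heavy chain that carries SLC7A5 and SLC7A11 to the membrane, had 187, 211 and 213 CPM in RasV12, 289, 229 and 263 CPM in MekDD, 294, 724 and 383 CPM in AKTmyr, 402, 293 and 332 CPM in T53D4 and 115, 167 and 197 CPM in ARPE19. AKTmyr replicate 2 was again the top library. SLC3A2 was lower in RasV12 than in AKTmyr (log2 -1.2 (SE 0.28, edgeR adjusted p = 0.00387)), lower in MekDD than in AKTmyr (log2 -0.84 (SE 0.28, edgeR adjusted p = 0.0379)) and higher in AKTmyr than in ARPE19 (log2 1.55 (SE 0.28, edgeR adjusted p = 0.00235)). The MekDD call was lost without MekDD replicate 1, MekDD replicate 2, MekDD replicate 3 or AKTmyr replicate 2 (log2 -0.92 to -0.38, edgeR adjusted p = 0.0634 to 0.232). RasV12 versus T53D4 gave log2 -0.75 (SE 0.28, edgeR adjusted p = 0.063), and edgeR adjusted p = 0.045 with the block.

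SLC7A11 exchanges cystine for glutamate and so supplies cysteine for glutathione. It had 70.7, 80.5 and 88.6 CPM in RasV12, 125, 74.5 and 82.7 CPM in MekDD, 49.4, 124 and 179 CPM in AKTmyr, 104, 79.5 and 91.2 CPM in T53D4 and 12.7, 45.6 and 56.5 CPM in ARPE19. ARPE19 replicate 1 was the lowest of the 15, AKTmyr replicate 3 was the highest, and AKTmyr replicate 1 lay inside the ARPE19 range. SLC7A11 was higher in AKTmyr than in ARPE19 (log2 1.62 (SE 0.47, edgeR adjusted p = 0.0307)), a call lost without AKTmyr replicate 2, AKTmyr replicate 3, ARPE19 replicate 1 or ARPE19 replicate 2 (log2 1.18 to 1.77, edgeR adjusted p = 0.061 to 0.113). The other 9 comparisons did not pass (log2 -0.56 to 1.3, edgeR adjusted p = 0.0941 to 0.985). With the block it was called higher in MekDD than in ARPE19 (edgeR adjusted p = 0.0402).

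SLC6A9, a glycine transporter, had 20.3, 37.3 and 28.2 CPM in RasV12, 25.9, 22.9 and 15.5 CPM in MekDD, 13.3, 29.1 and 16.4 CPM in AKTmyr, 14.9, 14.1 and 14.7 CPM in T53D4 and 1.03, 6.07 and 6.95 CPM in ARPE19. The T53D4 libraries were tightly grouped, all ARPE19 libraries lay below them, and ARPE19 replicate 1 was near 1 CPM. SLC6A9 was higher than in ARPE19 in RasV12 (log2 2.62 (SE 0.50, edgeR adjusted p = 0.00152)), MekDD (log2 2.21 (SE 0.50, edgeR adjusted p = 0.0127)) and AKTmyr (log2 2.08 (SE 0.49, edgeR adjusted p = 0.0114)). In the annotation 8.01% of its exons overlap CCDC24 on the other strand.

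SLC38A2, a neutral amino acid carrier that amino acid shortage is known to raise, had few reads in its row of the table. It had 0.474, 0.685 and 1.04 CPM in RasV12, 0.717, 0.788 and 1.14 CPM in MekDD, 1.65, 0.638 and 1.17 CPM in AKTmyr, 0.342, 0.477 and 0.429 CPM in T53D4 and 1.2, 0.922 and 0.833 CPM in ARPE19. The T53D4 libraries and RasV12 replicate 1 were the lowest, and AKTmyr replicate 1 was the highest. SLC38A2 was higher in AKTmyr than in T53D4 (log2 1.44 (SE 0.40, edgeR adjusted p = 0.0213)), a call lost without AKTmyr replicate 1, T53D4 replicate 1 or T53D4 replicate 3 (log2 1.09 to 1.46, edgeR adjusted p = 0.0584 to 0.106). Its relative SLC38A1 averaged 292 ± 39.9 CPM in RasV12, 266 ± 27.0 CPM in MekDD, 250.4 ± 92.9 CPM in AKTmyr, 311 ± 10.2 CPM in T53D4 and 279 ± 60.2 CPM in ARPE19 (SD, n = 3). Whether the SLC38A2 row holds all reads of the gene is not known, so its level and its call may not stand for the whole gene. SLC7A1, which carries arginine and lysine, ran from 155 to 291 CPM and was called nowhere.

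All 4 feedback and stress effectors were called in at least 1 comparison, and the share of all genes so called was not computed. TRIB3, a pseudokinase that binds ATF4 and restrains it, had 154, 264 and 119.7 CPM in RasV12, 92.5, 119.8 and 73.4 CPM in MekDD, 41, 229 and 112 CPM in AKTmyr, 129, 115 and 67.8 CPM in T53D4 and 23, 36.9 and 33.7 CPM in ARPE19. AKTmyr replicate 1 stood near the top ARPE19 library, far below the other AKTmyr libraries. TRIB3 was higher than in ARPE19 in RasV12 (log2 2.52 (SE 0.50, edgeR adjusted p = 0.00186)), MekDD (log2 1.61 (SE 0.48, edgeR adjusted p = 0.0476)) and AKTmyr (log2 2.03 (SE 0.49, edgeR adjusted p = 0.0122)). The MekDD call was lost without any 1 of the 6 libraries (log2 1.41 to 1.77, edgeR adjusted p = 0.0581 to 0.166), and the AKTmyr call without AKTmyr replicate 2 (log2 1.29, edgeR adjusted p = 0.0629). CHAC1, the glutathione-degrading enzyme whose promoter is shown above, had 11.5, 21.1 and 8.91 CPM in RasV12, 10.6, 16.1 and 11.6 CPM in MekDD, 9.13, 15.7 and 18.8 CPM in AKTmyr, 28.9, 14.1 and 16.2 CPM in T53D4 and 3.25, 5.56 and 8.25 CPM in ARPE19. The ARPE19 libraries were the lowest and T53D4 replicate 1 the highest. CHAC1 was higher than in ARPE19 in RasV12 (log2 1.3 (SE 0.41, edgeR adjusted p = 0.0262)) and AKTmyr (log2 1.36 (SE 0.41, edgeR adjusted p = 0.0348)), calls lost without RasV12 replicate 2, ARPE19 replicate 1 or ARPE19 replicate 2 (log2 0.85 to 1.29, edgeR adjusted p = 0.0743 to 0.149) for RasV12 and without AKTmyr replicate 2, AKTmyr replicate 3, ARPE19 replicate 1 or ARPE19 replicate 2 (log2 1.08 to 1.35, edgeR adjusted p = 0.0834 to 0.112) for AKTmyr. With the block TRIB3 and CHAC1 were both higher in T53D4 than in ARPE19 (edgeR adjusted p = 0.0476 and 0.0459).

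DDIT4, also called REDD1, holds back the growth kinase complex mTORC1. It had 216, 285 and 211 CPM in RasV12, 265, 169 and 265 CPM in MekDD, 1094, 1026 and 939 CPM in AKTmyr, 400.0, 152 and 194 CPM in T53D4 and 204, 156 and 177 CPM in ARPE19. The AKTmyr libraries lay far above the other 12, T53D4 replicate 1 came next, and the rest overlapped. DDIT4 was higher in AKTmyr than in T53D4 (log2 2.04 (SE 0.30, edgeR adjusted p = 0.000633)) and ARPE19 (log2 2.51 (SE 0.31, edgeR adjusted p = 0.000147)), and lower in RasV12 and in MekDD than in AKTmyr (log2 -2.1 (SE 0.30, edgeR adjusted p = 0.000133) for RasV12 and log2 -2.13 (SE 0.30, edgeR adjusted p = 0.000261) for MekDD). SESN2, a leucine sensor that also restrains mTORC1, had 85.6, 151 and 67.9 CPM in RasV12, 36.1, 59.5 and 36 CPM in MekDD, 40.1, 89.6 and 52.3 CPM in AKTmyr, 75.3, 66 and 48.2 CPM in T53D4 and 40.3, 50.9 and 46.6 CPM in ARPE19. RasV12 replicate 2 was the highest library, and the RasV12 libraries lay above all MekDD and ARPE19 libraries. SESN2 was higher in RasV12 than in MekDD (log2 1.21 (SE 0.33, edgeR adjusted p = 0.0227)) and ARPE19 (log2 1.15 (SE 0.33, edgeR adjusted p = 0.0172)), calls lost without RasV12 replicate 2, MekDD replicate 1 or MekDD replicate 3 (log2 0.81 to 1.09, edgeR adjusted p = 0.0834 to 0.136) for MekDD and without RasV12 replicate 2 or ARPE19 replicate 1 (log2 0.74 to 1.07, edgeR adjusted p = 0.0639 to 0.106) for ARPE19. RasV12 versus T53D4 gave log2 0.69 (SE 0.33, edgeR adjusted p = 0.147), and edgeR adjusted p = 0.0459 with the block.

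Of the last group, VLDLR, a lipoprotein receptor, followed the AKTmyr pattern. It had 78.4, 63.1 and 68.2 CPM in RasV12, 153, 78.4 and 106 CPM in MekDD, 290.0, 188 and 269.7 CPM in AKTmyr, 149.6, 68.5 and 80.8 CPM in T53D4 and 115, 86.8 and 93.7 CPM in ARPE19. The AKTmyr libraries were the 3 highest, and RasV12 held the 2 lowest values. VLDLR was higher in AKTmyr than in T53D4 (log2 1.32 (SE 0.29, edgeR adjusted p = 0.00693)) and ARPE19 (log2 1.34 (SE 0.29, edgeR adjusted p = 0.00695)), and lower in RasV12 and MekDD than in AKTmyr (log2 -1.83 (SE 0.29, edgeR adjusted p = 0.000302) for RasV12 and log2 -1.15 (SE 0.29, edgeR adjusted p = 0.0106) for MekDD). With the block it was also lower in RasV12 than in MekDD and T53D4 (edgeR adjusted p = 0.00919 and 0.0415).

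ADM2, a peptide hormone gene, had 3.14, 5.63 and 2.61 CPM in RasV12, 8.72, 7.17 and 5.2 CPM in MekDD, 4.67, 8.28 and 5.92 CPM in AKTmyr, 17.4, 6.46 and 4.67 CPM in T53D4 and 1.23, 1.41 and 1.5 CPM in ARPE19. The ARPE19 libraries were the lowest and close to each other, and T53D4 replicate 1 was the highest of the 15, well above the other T53D4 libraries. ADM2 was higher than in ARPE19 in RasV12 (log2 1.47 (SE 0.46, edgeR adjusted p = 0.0249)), MekDD (log2 2.35 (SE 0.46, edgeR adjusted p = 0.00568)), AKTmyr (log2 2.19 (SE 0.46, edgeR adjusted p = 0.00553)) and T53D4 (log2 2.79 (SE 0.46, edgeR adjusted p = 0.040)). It was lower in RasV12 than in T53D4 with overlapping libraries (log2 -1.31 (SE 0.43, edgeR adjusted p = 0.0391)). Calls were lost without RasV12 replicate 2, ARPE19 replicate 1 or ARPE19 replicate 2 (log2 1.06 to 1.49, edgeR adjusted p = 0.067 to 0.128) for RasV12 versus ARPE19, without T53D4 replicate 1, T53D4 replicate 2, ARPE19 replicate 1, ARPE19 replicate 2 or ARPE19 replicate 3 (log2 2.01 to 3.01, edgeR adjusted p = 0.0829 to 0.183) for T53D4 versus ARPE19 and without RasV12 replicate 1, RasV12 replicate 3 or T53D4 replicate 1 (log2 -1.18 to -0.53, edgeR adjusted p = 0.127 to 0.316) for RasV12 versus T53D4.

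XPOT, which exports transfer RNA from the nucleus, had 451, 474 and 329 CPM in RasV12, 487, 398 and 317 CPM in MekDD, 262, 443 and 389 CPM in AKTmyr, 370.4, 371 and 319 CPM in T53D4 and 150.1, 255 and 257 CPM in ARPE19. The ARPE19 libraries held the lowest values, with replicate 1 below the other ARPE19 libraries. XPOT was higher than in ARPE19 in RasV12 (log2 0.92 (SE 0.24, edgeR adjusted p = 0.0106)) and MekDD (log2 0.86 (SE 0.24, edgeR adjusted p = 0.0362)), the MekDD call being lost without MekDD replicate 1, MekDD replicate 2, ARPE19 replicate 1 or ARPE19 replicate 2 (log2 0.64 to 0.98, edgeR adjusted p = 0.0628 to 0.142). AKTmyr versus ARPE19 gave log2 0.73 (SE 0.24, edgeR adjusted p = 0.0549), and edgeR adjusted p = 0.0333 with the block. STC2, a secreted glycoprotein with 84.6 to 237 CPM, was called nowhere.

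**Figure D5:**
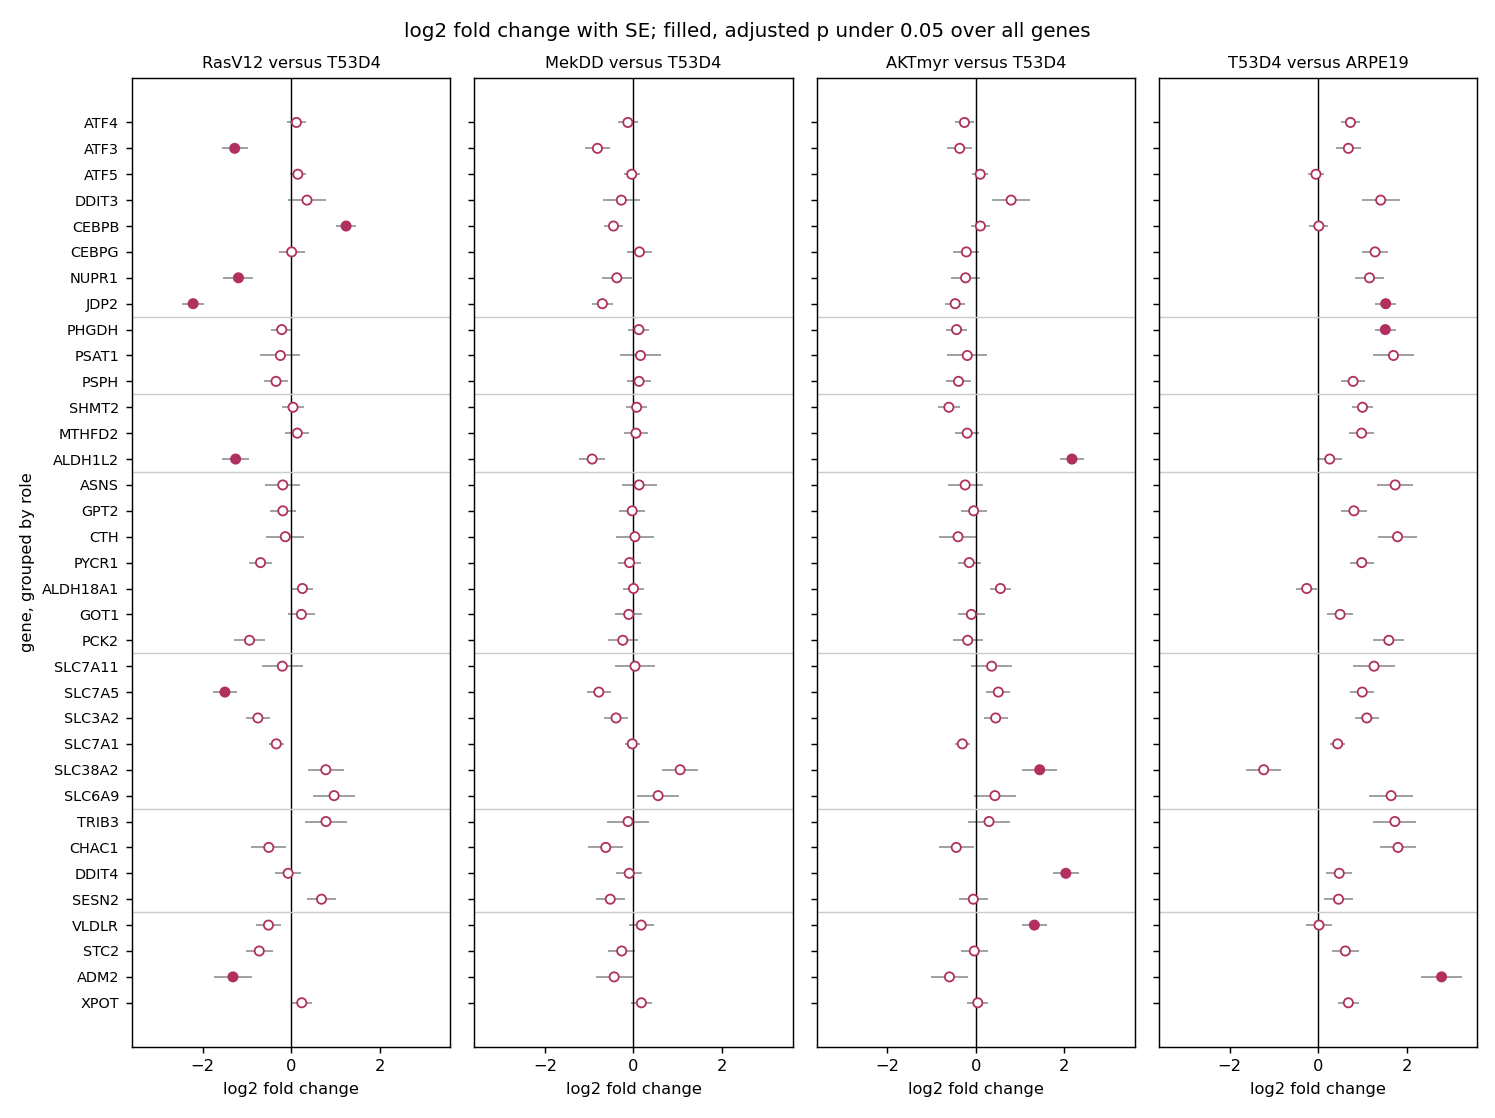
Log2 fold changes of the 35 genes with their SE (points and bars) in RasV12, MekDD and AKTmyr versus T53D4 and in T53D4 versus ARPE19, filled where the edgeR adjusted p is under 0.05. Most points of T53D4 versus ARPE19 lie right of 0, with 3 filled. In the comparisons with T53D4 the points scatter around 0, with JDP2 at -2.21 in RasV12 and ALDH1L2 at 2.17 in AKTmyr furthest out.

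Ordered by mean level, ARPE19 was the lowest line for 23 of the 35 genes and the highest for 0. RasV12 was the lowest for 7, MekDD for 3, AKTmyr for 0 and T53D4 for 2. The highest line was RasV12 for 9 genes, MekDD for 7, AKTmyr for 9 and T53D4 for 10, so no derived line led the set. Per kilobase of exon, the line means ran from 87.1 to 496 CPM for DDIT4, 69.1 to 277 CPM for SLC7A5 and 140.0 to 252 CPM for ATF4, the top of the set. They ran from 0.0288 to 0.307 CPM for ALDH1L2 and 0.0639 to 0.177 CPM for the SLC38A2 row, the bottom of it.

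Neighbouring pathways were counted from lists of related genes. The kinases that phosphorylate eIF2 and their partners (10 genes) held the most calls in RasV12 versus AKTmyr, with 3 higher and 3 lower, where 19.6% of all genes were called higher and 20.7% lower. EIF2AK3, the kinase PERK that senses misfolded protein, was lower there (log2 -1.21 (SE 0.14, edgeR adjusted p = 1.86e-05)), and PPP1R15A, a phosphatase subunit that acts on eIF2, was higher (log2 0.63 (SE 0.21, edgeR adjusted p = 0.0289)). In MekDD versus AKTmyr 1 was higher and 2 lower, where 12.7% and 13.5% of all genes were. EIF2AK3 was also lower in RasV12 than in T53D4, at 18 ± 1.97 CPM in RasV12 and 37.4 ± 3.35 CPM in T53D4, log2 -1.05 (SE 0.14, edgeR adjusted p = 8.18e-05). EIF2AK4, the kinase GCN2 that senses uncharged transfer RNA, was higher in RasV12 than in T53D4, at 132 ± 17 CPM in RasV12 and 95.9 ± 3.98 CPM in T53D4, log2 0.46 (SE 0.12, edgeR adjusted p = 0.0143), and higher in MekDD than in T53D4, at log2 0.51 (SE 0.12, edgeR adjusted p = 0.0291). In ARPE19 EIF2AK4 had 122 ± 3.77 CPM, and neither RasV12 nor MekDD was called different from ARPE19. AKTmyr, at 90 ± 2.15 CPM, was called lower than ARPE19 (log2 -0.44 (SE 0.12, edgeR adjusted p = 0.0269)). AKTmyr versus T53D4 had 0 calls in this list by edgeR, with 3 of 10 at an unadjusted p under 0.05, where 4656 of all 13599 genes were. With the block 1 was higher and 2 lower, where 2304 and 2434 of all genes were. The block also called 1 more gene lower in MekDD versus T53D4, where it called 843 of all genes lower. Of 20 cytosolic tRNA synthetases, 0 were called in RasV12 or MekDD versus T53D4. At an unadjusted p under 0.05 there were 0 in each, against 4880 and 2378 of all 13599 genes. AKTmyr held FARSA and VARS1 lower than T53D4, at log2 -0.58 (SE 0.12, edgeR adjusted p = 0.00543) and log2 -0.52 (SE 0.17, edgeR adjusted p = 0.0404), where 10.2% of all genes were lower. RasV12 held 4 higher than AKTmyr, namely FARSB, FARSA, VARS1 and KARS1, and 0 lower, where 19.6% of all genes were higher and 20.7% lower. Against ARPE19, MARS1 (log2 0.95 (SE 0.30, edgeR adjusted p = 0.0256)) and AARS1 (log2 0.86 (SE 0.29, edgeR adjusted p = 0.0367)) were higher in RasV12, where 14.4% of all genes were higher, and MARS1 shares exons with DDIT3 on the other strand. In AKTmyr, CARS1 (log2 0.92 (SE 0.21, edgeR adjusted p = 0.00891)) and AARS1 (log2 1.0 (SE 0.29, edgeR adjusted p = 0.0304)) were higher and FARSA lower (log2 -0.38 (SE 0.12, edgeR adjusted p = 0.0472)) than in ARPE19, where 7.98% of all genes were higher and 8.86% lower.

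The endoplasmic reticulum chaperones and XBP1 branch genes (19) held most of their calls in comparisons with AKTmyr. In AKTmyr versus T53D4, 7 were higher and 0 lower, where 9.91% and 10.2% of all genes were, 19 of 19 were positive and their median was 0.46 on the log2 scale, against -0.01 for all genes. With the block 11 were higher and 0 lower, where 2304 and 2434 of all 13599 genes were. HSPA5, the chaperone BiP, was among the 7, and the largest were ERN1, the sensor IRE1, at 9.51 ± 3.11 CPM in AKTmyr and 4.3 ± 0.755 CPM in T53D4, log2 1.15 (SE 0.31, edgeR adjusted p = 0.0208), PDIA4, a disulfide isomerase, at log2 0.95 (SE 0.27, edgeR adjusted p = 0.025), HYOU1 at log2 0.91 (SE 0.28, edgeR adjusted p = 0.0361) and DNAJB9 at log2 0.84 (SE 0.23, edgeR adjusted p = 0.0223). In MekDD versus AKTmyr, 0 were higher and 11 lower, where 12.7% and 13.5% of all genes were, with a median of -0.52. In RasV12 versus T53D4, ERN1 (log2 1.51 (SE 0.32, edgeR adjusted p = 0.00313)), MANF (log2 0.83 (SE 0.18, edgeR adjusted p = 0.00477)) and CRELD2 (log2 0.67 (SE 0.20, edgeR adjusted p = 0.026)) were higher and HERPUD1 (log2 -0.69 (SE 0.19, edgeR adjusted p = 0.0156)) lower, where 10.8% and 13.6% of all genes were. MekDD versus T53D4 had 0 calls of 19 by edgeR, with 2 at an unadjusted p under 0.05, where 2378 of all 13599 genes were. With the block 1 was lower, where 843 of all genes were.

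Of 13 tested other amino acid transporters, 3 were higher and 1 lower in AKTmyr than in T53D4, where 9.91% and 10.2% of all genes were. SLC7A8, another light chain that pairs with SLC3A2, was the largest, at 43.1 ± 5.51 CPM in AKTmyr and 7.29 ± 5.18 CPM in T53D4, log2 2.55 (SE 0.74, edgeR adjusted p = 0.0273), and SLC43A1 was lower (log2 -1.46 (SE 0.35, edgeR adjusted p = 0.0107)). In RasV12 versus T53D4, 0 were higher and 3 lower, led by SLC16A10 (log2 -0.83 (SE 0.27, edgeR adjusted p = 0.0357)) and SLC7A6 (log2 -0.67 (SE 0.15, edgeR adjusted p = 0.00512)), where 10.8% and 13.6% of all genes were. With the block 2 were higher and 4 lower, where 2259 and 2607 of all 13599 genes were. In MekDD versus T53D4 SLC38A7 was lower (log2 -0.66 (SE 0.18, edgeR adjusted p = 0.0487)), where 2.83% of all genes were. With the block 2 were higher and 3 lower, where 746 and 843 of all 13599 genes were. Of 14 tested other genes of the folate, glycine and methionine cycles, MTHFD2L, a mitochondrial relative of MTHFD2 (log2 1.14 (SE 0.22, edgeR adjusted p = 0.00174)), and GLDC, which cleaves glycine (log2 0.84 (SE 0.22, edgeR adjusted p = 0.0138)), were higher in RasV12 than in T53D4. GLDC was lower in AKTmyr than in T53D4 (log2 -1.12 (SE 0.23, edgeR adjusted p = 0.00487)), as was AHCY of the methionine cycle (log2 -0.65 (SE 0.17, edgeR adjusted p = 0.018)). With the block 1 of these 14 genes was higher and 4 lower in AKTmyr than in T53D4, where 2304 and 2434 of all 13599 genes were. Of 9 tested glutamine, proline and glutathione partners, GCLM, a subunit of the enzyme that starts glutathione synthesis, was higher than in T53D4 in RasV12 (log2 0.54 (SE 0.16, edgeR adjusted p = 0.0251)) and AKTmyr (log2 0.81 (SE 0.16, edgeR adjusted p = 0.00421)). In T53D4 versus ARPE19, 0 genes were called by edgeR in any of these 6 lists, and the numbers at an unadjusted p under 0.05 were 3 of 10 for the eIF2 genes, 7 of 20 for the synthetases, 4 of 13 for the transporters, 1 of 14 for the folate genes, 1 of 19 for the chaperones and 2 of 9 for the last list. Of all 13599 genes, 1456 had an unadjusted p under 0.05 there. With the block 1 synthetase and 2 transporters were higher in T53D4 and 0 lower, with 0 calls in the other 4 lists. The block called 101 of all genes higher and 131 lower in that comparison.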

How the data were processed

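Poly(A) RNA of 15 libraries, 3 for each of 5 human cell lines, was sequenced as paired reads from a directional kit, per the labels' protocols. Raw counts of reads on each gene, as the authors deposited them, were analysed. The submitters' processing notes name build hg38 and, without roles, DESeq2 1.28.1, featureCounts 1.6.4, HISAT2 2.1.0, fastp 0.20.0, SAMtools 1.9 and deepTools 3.2.0. Their order and settings, and whether counting used strand, are not given in the sources used here. Of the table's rows, 7 are construct sequences, which stayed out of library sizes and tests, and 15510 are genes, 9 of them without a symbol. Columns of the table without a library numbered 0. The normalised and log-scale tables were not used, since the counts carry the depth, which ran from 20.63 to 46.55 M reads per library. Gene positions and overlaps come from the deposited annotation, pseudogene names from GENCODE and promoters from RefSeq GRCh38.p14.

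The filter filterByExpr (minimum count 10, by line) kept 13599 genes. In R 4.3.3, edgeR 4.0.16 fitted all 15 libraries with 1 factor, the line, and its quasi-likelihood test gave the p-values. SE is the log2 fold change over the root of its F statistic. The p-values were adjusted by Benjamini-Hochberg over the 13599 genes and called under 0.05. CPM uses TMM library sizes, and log2 CPM per library a prior count of 2. The scripts were tested on simulated counts. Alternatives were DESeq2 1.42.0 size factors and its Wald test, no filter, the construct rows kept, only the 2 lines compared, a replicate block, and leaving out each library, plus replicate 1 of every line, which was chosen after seeing the data. The p-values cover vials, cultures and preparations of 1 line per construct.

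Replicate numbers come from the labels, which give each replicate its own thawed vial. Deviations from the line means correlated over 0.1 in all same-numbered pairs of 8 of the 10 comparisons, and in 28 of 30 pairs over all (lowest 0.0103, highest 0.722). The comparisons that failed were RasV12 versus AKTmyr and RasV12 versus ARPE19, each through the libraries numbered 3 alone.

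PHGDH, ASNS, ATF4, DDIT3 and SLC7A11 were named in every comparison, other members where called or for their level, and up to 4 called genes per further list and comparison. The members, lists and promoter choices were made with earlier results of these data known.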

Additional observations from a re-analysis of the deposited data

Results flagged for a closer look

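ALDH1L2, the mitochondrial formyltetrahydrofolate dehydrogenase, moved in opposite directions in 2 oncogene lines. It was lower in RasV12 than in T53D4 (log2 -1.25) and higher in AKTmyr than in T53D4 (log2 2.17). The direct test of that difference, RasV12 versus AKTmyr, gave log2 -3.43 (SE 0.29, edgeR adjusted p = 2.05e-06). Set against ARPE19 the values were -0.99 in RasV12 and 2.43 in AKTmyr, with the same direct difference. That RasV12 call against ARPE19 (edgeR adjusted p = 0.0237) was lost in 6 of the 13 alternatives. The RasV12 libraries reached at most 0.315 CPM and the AKTmyr libraries at least 2.84 CPM.

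JDP2, the AP-1 family repressor, was lower in RasV12 than in ARPE19 (log2 -0.69) and higher in MekDD (log2 0.82) and AKTmyr (log2 1.06) than in ARPE19. The direct tests gave log2 -1.51 for RasV12 versus MekDD (SE 0.24, edgeR adjusted p = 0.000736) and log2 -1.75 for RasV12 versus AKTmyr (SE 0.24, edgeR adjusted p = 8.96e-05). The values against ARPE19 share its 3 libraries, and the direct tests do not use them. Against ARPE19, the RasV12 call (edgeR adjusted p = 0.0402) was lost in 7 of the 13 alternatives and the MekDD call (edgeR adjusted p = 0.0367) in 6. The AKTmyr call and both direct tests held in all 13.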

How the results depend on the processing

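Of the 84 member calls over the 10 comparisons, 41 held in each of the 13 alternatives run. The fit with only the 2 lines compared lost 24, leaving out replicate 1 of every line lost 22, and the DESeq2 Wald test, DESeq2 size factors and no filter lost 1 each (ALDH1L2 in RasV12 versus ARPE19, PSPH in MekDD versus ARPE19 and JDP2 in RasV12 versus ARPE19). No called value changed sign in any of them. Keeping the construct rows changed no count by over 1.5 times.

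With the replicate block, the number of genes called became 12 in RasV12 versus T53D4 (7 without it), 1 in MekDD versus T53D4 (0), 7 in AKTmyr versus T53D4 (4), 12 in T53D4 versus ARPE19 (3), 7 in RasV12 versus MekDD (3) and 9 in MekDD versus AKTmyr (5). It lost no call, and over all genes tested it also called more in every comparison. In RasV12 versus AKTmyr and RasV12 versus ARPE19 the block gave 12 (10) and 21 (18). There the libraries numbered 3 correlated at only 0.0271 and 0.0103. Those numbered 1 correlated at 0.251 and 0.235, and those numbered 2 at 0.336 and 0.298. Over all comparisons, 29 of 30 same-numbered pairs correlated best with each other. The DESeq2 Wald test called 15 in T53D4 versus ARPE19 and 8 in MekDD versus AKTmyr. With only the 2 lines compared, 0 were called in T53D4 versus ARPE19 and 11 in AKTmyr versus ARPE19 (19 with all libraries). Without replicate 1 of any line, 0 were called in T53D4 versus ARPE19, 9 in MekDD versus AKTmyr and 7 in MekDD versus ARPE19.

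Leaving out single libraries, the count ranged from 0 to 2 in T53D4 versus ARPE19, 11 to 17 in RasV12 versus ARPE19, 5 to 12 in MekDD versus ARPE19 and 10 to 21 in AKTmyr versus ARPE19. Of 130 medians over the 35 genes, 10 comparisons under 13 alternatives, 13 moved by more than the spread between replicates. The 4 medians against ARPE19 stayed positive, and the other 6 changed sign in at least 1 alternative, within -0.37 and 0.29. Leaving out a library also leaves fewer samples for the test. The values that changed sign were all uncalled. On the log2 scale, over single left-out libraries, ASNS ranged from -0.39 to 0.15, ATF4 from -0.10 to 0.26 and DDIT3 from -0.091 to 0.63 in RasV12 versus T53D4. ASNS ranged from -0.12 to 0.33 and SLC7A11 from -0.22 to 0.18 in MekDD versus T53D4, and SLC7A11 from -0.080 to 0.74 in AKTmyr versus T53D4. ASNS ranged from -0.52 to 0.024 and SLC7A11 from -0.38 to 0.024 in RasV12 versus MekDD. ASNS ranged from -0.15 to 0.39 and DDIT3 from -0.89 to 0.0076 in RasV12 versus AKTmyr. ATF4 ranged from -0.078 to 0.31 and SLC7A11 from -0.71 to 0.12 in MekDD versus AKTmyr. Without replicate 1 of any line, SLC7A11 stood at 0.0021 in RasV12 versus T53D4, -0.11 in MekDD versus T53D4 and 0.11 in RasV12 versus MekDD. ATF4 stood at 0.0016 in MekDD versus T53D4, 0.022 in AKTmyr versus T53D4 and -0.020 in MekDD versus AKTmyr. ASNS stood at 0.17 in AKTmyr versus T53D4, -0.34 in RasV12 versus AKTmyr and -0.079 in MekDD versus AKTmyr. The cause of these changes was not tested.

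The limits are the 3 libraries per line, the single line per construct, the low member level of ARPE19 replicate 1, and low counts for ALDH1L2 and SLC38A2. RNA levels say nothing of ATF4 translation.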

Other observations

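Between the oncogene lines, genes beside the response also differed. AHCY, which clears the product of methylation reactions, was higher in RasV12 than in AKTmyr, at 314 ± 76.8 CPM in RasV12 and 153 ± 23.6 CPM in AKTmyr, log2 1.04 (SE 0.17, edgeR adjusted p = 0.000415). GLDC, the glycine cleavage decarboxylase, was higher in RasV12 than in AKTmyr, at 22.8 ± 4.5 CPM in RasV12 and 5.85 ± 1.77 CPM in AKTmyr, log2 1.96 (SE 0.23, edgeR adjusted p = 2.91e-05), and higher in MekDD than in AKTmyr (log2 1.66 (SE 0.23, edgeR adjusted p = 0.000226)). SLC43A1, a carrier of large neutral amino acids, was higher in MekDD than in AKTmyr, at 11.4 ± 2.48 CPM in MekDD and 2.3 ± 1.06 CPM in AKTmyr, log2 2.31 (SE 0.35, edgeR adjusted p = 0.000455), while its relative SLC43A2 was lower, at 0.659 ± 0.0911 CPM in MekDD and 4.76 ± 3.68 CPM in AKTmyr, log2 -2.84 (SE 0.73, edgeR adjusted p = 0.0122).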
